A study of Caenorhabditis elegans with 21 samples.

Results

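The right arm of chromosome II of Caenorhabditis elegans was taken as the windows of 500 bp, on build ce10, that lie outward of its inner edge, II 12020001 to 15279345 (3.26 Mb, 1-based). These were 6519 of the 200547 windows of the genome (3.25%), and they were chosen by position alone. RNA was measured in 6 genotypes with 3 libraries each. The double mutants carried nrde-3(tm1116) X with met-2(n4256) III, the same nrde-3 allele with set-25(n5021) III, or lin-61(tm2649) I with set-25(n5021) III. The single mutants carried nrde-3(tm1116) X or lin-61(tm2649) I, and N2 (Bristol) was the wild type. All samples were early embryos of worms kept at 20 °C, collected ahead of the bean stage at about 1 to 300 cells. Total RNA (5 µg per library) was sequenced after removal of ribosomal RNA. The study asks how NRDE-3 and LIN-61 relate to the enzyme that trimethylates lysine 9 of histone H3.

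The arms of C. elegans autosomes are the outer parts of each chromosome, where repeats are dense and histone H3 is often methylated on lysine 9. MET-2 and SET-25 are the methyltransferases that place most of that mark in embryos, MET-2 giving its mono- and dimethylated forms and SET-25 the trimethylated form. NRDE-3 is an Argonaute protein that carries small interfering RNAs into the nucleus of somatic cells, where they direct the silencing of matching transcripts. LIN-61 is a protein with MBT domains that binds methylated lysine 9. The windows carry no gene names, and the annotation at hand is of another build and was not used here, so windows and stretches are named by position.

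Libraries held 22275571 to 67553226 reads, of which 2.85 to 4% fell in the arm. The title of each library opens with a number that is fixed by genotype, 875 for lin-61 and N2 and 1121 for the other genotypes. In a comparison across these prefixes (nrde-3 with N2, lin-61 set-25 with lin-61), genotype and prefix cannot be told apart. A quiet set of 32328 windows, whose reads in the lin-61 and N2 libraries summed to at most 2, had a mean level of 0.0985 to 0.297 CPM (reads per 1e6 reads after TMM scaling) in nrde-3 met-2, against 0.00489 to 0.00583 in nrde-3. The libraries labelled lin-61 met-2 went against their label. They were high in all 3 windows that were low in both lin-61 and lin-61 set-25 (35.5 ± 4.09 CPM, against 33.9 ± 1.79 CPM in N2; SD, n = 3 each), and low in all 6 windows that were low in the nrde-3 genotypes. They are not compared here, but they enter the choice of tested windows, the TMM scaling and the estimate of the spread. The titles count 3 replicates and the labels' text 2 biological ones; the spread behind every p-value is thus that of libraries and may be technical. In whole embryos, fewer cells with a transcript and less of it per cell cannot be told apart.

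Most of the arm gave little RNA. Of its 6519 windows, 3136 (48.1%) had enough reads to be tested, against 48.6% in the rest of the genome and 56.1% in the centre of chromosome II, and 3383 were left out by the filter on low counts. No read was found in any of the 18 libraries compared in 17 windows (0.261%), against 0.0819% of windows elsewhere. The median level of a tested window in N2 was 1.35 CPM, against 1.27 CPM over all tested windows. The first and last windows on either side of the inner edge averaged at most 0.116 CPM in any genotype.

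A few windows carried much of the RNA. The 20 most abundant windows in N2 held 40.4 ± 3.75% of the arm's level in nrde-3 met-2, 44.3 ± 4.25% in nrde-3 set-25, 30.0 ± 3.19% in lin-61 set-25, 37.8 ± 4.99% in nrde-3, 46.7 ± 4.35% in lin-61 and 56.3 ± 1.97% in N2 (SD, n = 3 libraries each). These windows were chosen by their level in the same N2 libraries, so the share in N2 is raised in part by construction. In N2, 8 windows reached 1000 CPM and 598 reached 10 CPM. The most abundant, II 13827001 and II 13825001, averaged 5350 ± 994 and 5330 ± 242 CPM in N2 and ranked 15 and 16 in the genome. Both lay in a stretch of 11.5 kb, II 13817501 to 13829000, as did II 13818001 (2430 ± 643 CPM in N2) and II 13821501 (2350 ± 594 CPM in N2). II 14251001, the other of the 5 most abundant windows, lay apart, at 2870 ± 286 CPM in N2.

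The stretch of 11.5 kb summed to 12903, 11359 and 9304 CPM in nrde-3 met-2, to 10593, 13328 and 16682 CPM in nrde-3 set-25 and to 6486, 8355 and 5066 CPM in lin-61 set-25. It summed to 13903, 8276 and 9261 CPM in nrde-3, to 9714, 14917 and 12430 CPM in lin-61 and to 20392, 24802 and 22434 CPM in N2, where it was 43.9 ± 3.27% of the arm. Every N2 library was above every mutant library, though the stretch was itself chosen by its level in N2. Of its 23 windows, edgeR called 8 as lower and 0 as higher for lin-61 against N2, and 6 as lower and 4 as higher for nrde-3 against N2. In lin-61 set-25, 7 were higher and 6 lower than in lin-61, and in nrde-3 set-25, 4 were higher and 0 lower than in lin-61 set-25. Against nrde-3, edgeR called 0 in nrde-3 met-2 and 0 in nrde-3 set-25.

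Some windows of this stretch that lie 3500 bp apart had almost the same level. II 13819501 and II 13823001 averaged 380.9 and 374.2 CPM in lin-61 set-25, 757.4 and 758.6 CPM in lin-61 and 1490.8 and 1492.3 CPM in N2, and in no library did they differ by more than 0.03 on the log2 scale. II 13820001 and II 13823501 differed by at most 0.06, and II 13818001 and II 13821501 by at most 0.21. The other pairs examined at this distance differed more, with a largest difference in any library of 0.86 to 8.05. How the counting treated reads that match several places is not given in the sources used here. Values of single windows in this stretch are thus uncertain. No sequence was examined, and whether reads were shared between windows was not tested.

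**Figure D1:**
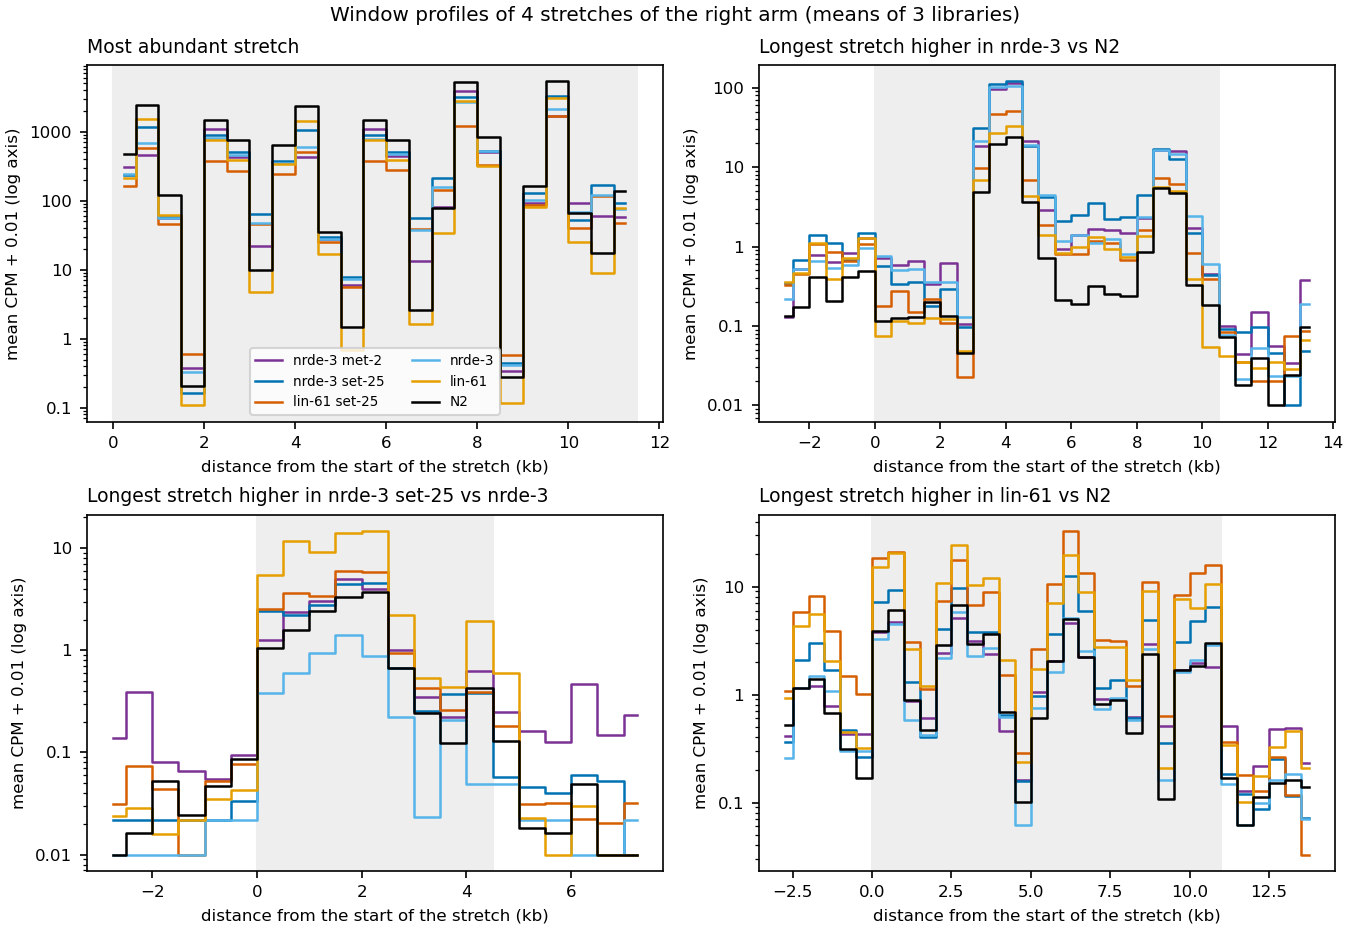
Mean level of each window of 500 bp (CPM + 0.01, log axis) over 3 libraries per genotype along 4 stretches of the arm, against the distance from the start of the stretch in kb; grey marks the stretch. The panels show the most abundant stretch (11.5 kb, summed level highest in N2), the stretch higher in nrde-3 than in N2 (10.5 kb), the stretch called in nrde-3 set-25 against nrde-3 (4.5 kb) and the longest stretch higher in lin-61 than in N2 (11 kb).

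Summed over the arm, the level was lower in every mutant library than in every N2 library. The sums were 32706, 36537 and 27586 CPM in nrde-3 met-2, 29315, 33554 and 37977 CPM in nrde-3 set-25, and 26030, 28141 and 23076 CPM in lin-61 set-25. They were 35697, 27898 and 31006 CPM in nrde-3. The lin-61 libraries came to 33773, 43154 and 38452 CPM, and the N2 libraries to 49044, 52037 and 52760 CPM. The ratio to N2 was 0.75 in lin-61 and 0.615 in nrde-3. The sum in lin-61 set-25 was 0.67 of that in lin-61, and the sum in nrde-3 set-25 was 1.31 times that in lin-61 set-25. These 4 differences had an exact two-sided permutation p of 0.1, the smallest that 3 against 3 libraries allow. The ratio to nrde-3 was 1.02 in nrde-3 met-2 (exact permutation p = 0.8) and 1.07 in nrde-3 set-25 (exact permutation p = 0.6), with overlapping libraries. These sums were not set against the rest of the genome. The TMM factor, which divides all windows of a library alike, was 1.13 to 1.25 in lin-61 set-25 and 0.737 to 0.862 in lin-61. It was 0.956 to 1.15 in nrde-3 and 0.758 to 0.788 in N2. Summed CPM over the whole genome was thus also lower in lin-61 set-25 than in lin-61, and in nrde-3 than in N2.

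The sums rested largely on the abundant windows. Without the 20 most abundant N2 windows the ratio was 0.91 for lin-61 to N2, 0.871 for nrde-3 to N2 and 0.881 for lin-61 set-25 to lin-61, and the groups still did not overlap. For nrde-3 set-25 to lin-61 set-25 it was 1.04, and the groups overlapped (exact permutation p = 0.5). The 20 windows were chosen by their level in the same N2 libraries, so leaving them out raises the ratios to N2 in part by construction. By 500 kb, the largest difference lay between II 13520001 and 14020000, which holds the stretch of 11.5 kb, with 9260 ± 1920 CPM in lin-61 set-25, 13500 ± 3180 CPM in nrde-3, 15500 ± 2680 CPM in lin-61 and 26100 ± 2080 CPM in N2 (SD, n = 3 each). As a plain share of all reads, the arm held 3.04% in lin-61 set-25 and 3.11% in lin-61, a ratio of 0.979 (exact permutation p = 0.5). Of the comparisons with nrde-3, this share was 3.6% in nrde-3 set-25 and 3.27% in nrde-3, a ratio of 1.1 with groups that did not overlap (exact permutation p = 0.1), and 3.46% in nrde-3 met-2, a ratio of 1.06 (exact permutation p = 0.2). The unscaled ratio was 0.788 for lin-61 to N2, 0.83 for nrde-3 to N2 and 1.18 for nrde-3 set-25 to lin-61 set-25, with no overlap in any of the 3.

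**Figure D2:**
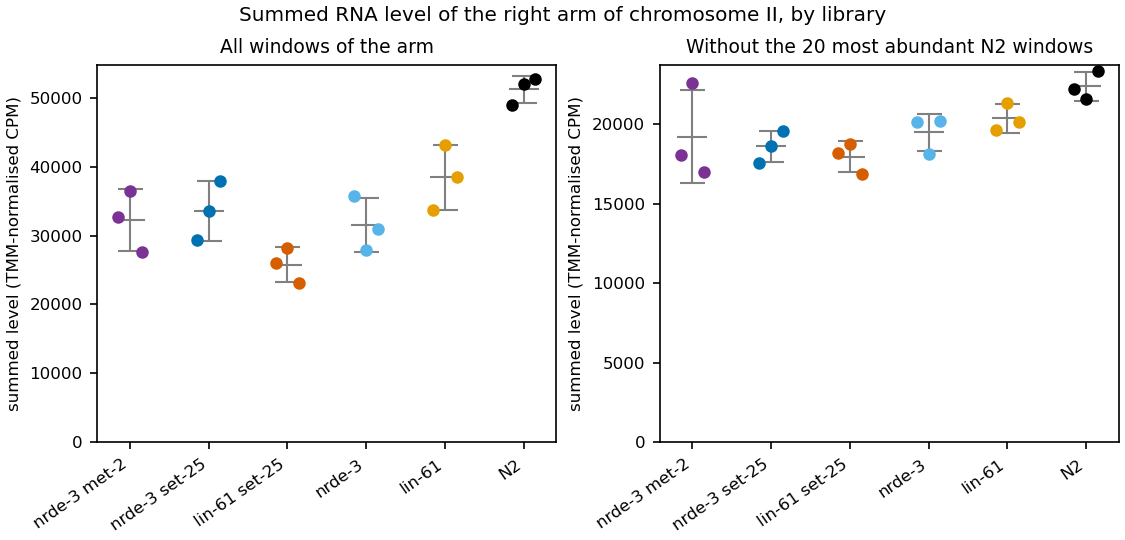
Summed level of the arm (CPM) in each library, for all windows and without the 20 most abundant N2 windows, with the mean and SD of 3 libraries per genotype. With all windows the N2 libraries (49044 to 52760 CPM) lie above all others, and without the 20 windows they lie between 21590 and 23365 CPM, with nrde-3 met-2 library b at 22584 CPM and lin-61 library b at 21375 CPM.

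In mean level the arm was not called apart from the rest of the genome in any comparison. The mean log2(CPM + 1) of its tested windows, minus that of all other tested windows, was -0.0817 ± 0.0162 in lin-61 and -0.0496 ± 0.0302 in N2 (SD, n = 3 each), a difference of -0.03 ± 0.03 (SE, limma adjusted p = 0.298 over 18 chromosome domains). For nrde-3 against N2 the difference was -0.06 ± 0.03 (limma adjusted p = 0.105), and in the other comparisons it lay between -0.0465 and -0.000278 (limma adjusted p of 0.17 to 0.992).

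The share of windows with at least 5 reads, after each library was thinned to 22275571 reads, was called apart from the rest of the genome in 1 comparison. In nrde-3 met-2 it was 60.5, 55.4 and 83.4% in the arm and 66.8, 53.9 and 89.5% elsewhere. In nrde-3 it was 42.9, 48.2 and 45% in the arm and 42, 46 and 43% elsewhere. The arm minus the rest was thus -3.64 ± 4.44 points in nrde-3 met-2 and 1.67 ± 0.68 points in nrde-3 (SD, n = 3 each), a difference of -5.31 ± 1.36 points (SE, limma adjusted p = 0.00144), carried by libraries a and c of nrde-3 met-2. Library b, at 1.49 points, lay within the nrde-3 libraries (0.888 to 2.13 points). The SE rests on a spread shared by all genotypes, and the SD of the others compared was 0.264 to 0.68 points. The SE and p-value thus understate the spread of nrde-3 met-2. Such a difference was called in 15 of the 18 domains, with either sign. The domains ran from -11.8 points in the right arm of chromosome III to 9.2 points in the centre of chromosome V. At a minimum of 20 reads the difference of the chromosome II right arm was -1.31 points and no longer called (limma adjusted p = 0.054). The level of the quiet windows within the arm moved with it, at 0.0984, 0.0733 and 0.217 CPM in nrde-3 met-2 and 0.0077, 0.00673 and 0.00583 CPM in nrde-3, and its part in the result was not tested. In the other comparisons the difference was -1.38 to 0.206 points (limma adjusted p of 0.594 to 0.972).

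**Figure D3:**
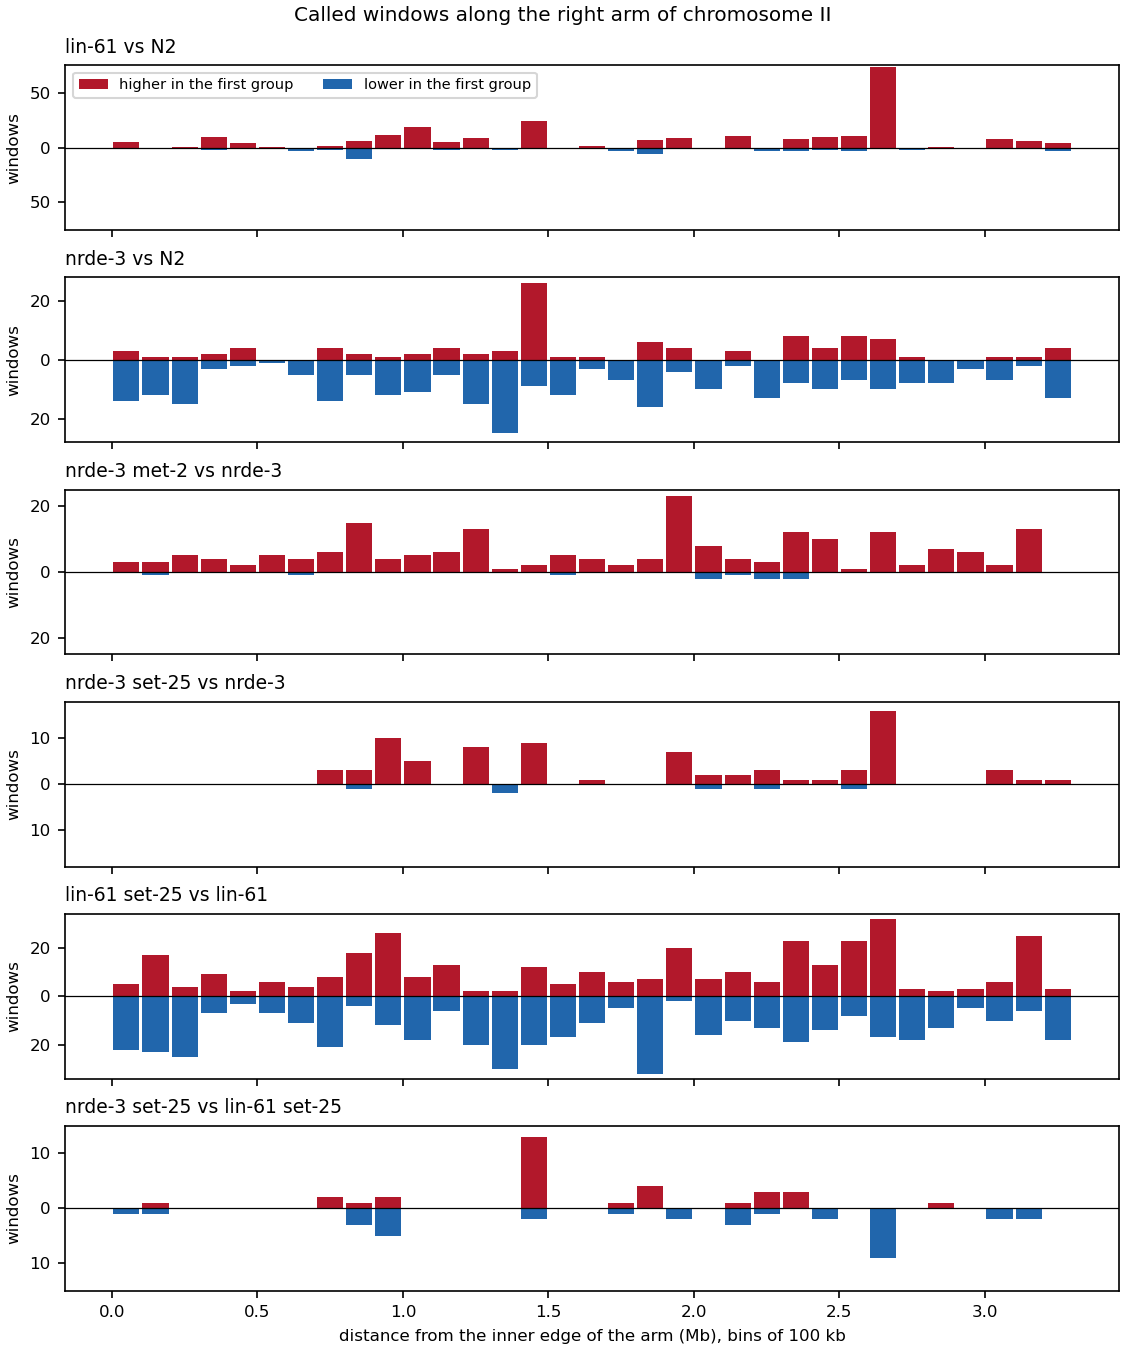
Number of windows called at an edgeR adjusted p below 0.05 per 100 kb, against the distance from the inner edge of the arm in Mb, for each comparison; red bars count windows higher and blue bars windows lower in the first genotype named. In lin-61 against N2, 74 of the 250 higher windows fall in a single bin near 2.65 Mb, and in nrde-3 against N2 26 of the 104 higher windows fall in the bin near 1.45 Mb.

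More windows of the arm were higher than lower in lin-61, and the higher ones had a low median level in N2. In lin-61, 52 windows were lower than in N2 (1.66% of those tested in the arm, against 2.05% of all tested windows) and 250 were higher (7.97%, against 10.5% of all). Their median level was 1.61 CPM in lin-61, against 0.344 CPM in N2, the median log2 fold change was 1.9, and 238 of the 250 rose at least 2-fold. The low level was not particular to the arm, as higher windows of the whole genome had a median of 0.34 CPM in N2. In all 250 higher and all 52 lower windows the libraries did not overlap, where 10.4% and 2.03% of all tested windows were higher or lower without overlap. The higher windows formed 87 regions, and 86 of the 250 lay between II 14520001 and 15020000, 17.7% of the windows tested there, while 18 lay between II 13520001 and 14020000, 3.82% of those tested. Counts of higher and lower windows were 165 and 21 without N2 library a, 117 and 11 without N2 library c, 160 and 14 without lin-61 library a, and 145 and 7 without lin-61 library c. They were 399 and 169 when only these 6 libraries were fitted, and DESeq2 called 103 lower windows.

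The longest region higher in lin-61, II 14656001 to 14667000, had 19 of its 22 windows called. Its mean level per window was 7.82, 6.68 and 9.66 CPM in lin-61 and 2.69, 2.69 and 1.32 CPM in N2. II 13508501 to 13516500, with 15 of 16 windows called, held 1.87, 1.06 and 2.11 CPM in lin-61 and 0.157, 0.171 and 0.0528 CPM in N2. II 14418001 to 14425000, with 13 of 14 windows called, held 9.29, 8.14 and 9.23 CPM in lin-61 and 4.34, 4.45 and 2.96 CPM in N2. In these 3 regions every lin-61 library was above every N2 library.

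The largest rise among the named windows was at II 14008001, which held 3.35, 1.58 and 2.57 CPM in lin-61 and 0.151, 0.16 and 0 CPM in N2. The log2 fold change was 4.49 ± 0.63 (SE, edgeR adjusted p = 5.93e-05), on 391 reads in lin-61 and 15 in N2. II 13510501 held 3.94, 1.85 and 4.98 CPM in lin-61 and 0.264, 0.343 and 0.121 CPM in N2, with a log2 fold change of 3.86 ± 0.53 (edgeR adjusted p = 5.52e-05). II 13108501, II 14620501 and II 14684001 had log2 fold changes of 3.34, 3.28 and 3.09, with means of 2.6, 3.22 and 1.44 CPM in lin-61 and 0.254, 0.329 and 0.168 CPM in N2. These 5 calls held without any 1 library and under every other setting tried.

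Lower windows had higher levels and smaller changes. Their median was 6.19 CPM in lin-61 and 10.7 CPM in N2, the median log2 fold change was -0.9, and 15 of the 52 fell at least 2-fold. Lower windows of the whole genome had a median of 9.84 CPM in N2. How far the filter on low counts and the calling set this contrast with the higher windows was not tested. II 13825501, in the stretch of 11.5 kb, held 288, 316 and 365 CPM in lin-61 and 856, 902 and 759 CPM in N2, with a log2 fold change of -1.38 ± 0.33 (SE, edgeR adjusted p = 0.00628) that held under every setting tried. II 13827501 and II 13817501, in the same stretch, had log2 fold changes of -1.37 and -1.13. II 12846001 held 2.15, 1.54 and 1.31 CPM in lin-61 and 5.82, 2.77 and 4.25 CPM in N2, with a log2 fold change of -1.36. II 14383001 held 1.06, 0.943 and 0.684 CPM in lin-61 and 2, 1.74 and 1.96 CPM in N2, with a log2 fold change of -1.08. The last 4 calls were lost without lin-61 library c or N2 library a. All of them but II 12846001 were lost without N2 library c, II 13827501 and II 13817501 without lin-61 library a, and II 13827501 without lin-61 library b, at log2 fold changes of -1.48 to -0.95 over these fits. The longest lower regions had 3 of 4 windows called each. II 12850001 to 12852000 held 15.5, 18.1 and 16.8 CPM per window in lin-61 and 26.7, 32 and 32.6 CPM in N2. II 13819501 to 13821500, in the stretch of 11.5 kb, held 315, 452 and 353 CPM in lin-61 and 741, 718 and 713 CPM in N2, and II 15230501 to 15232500 held 4.61, 5.97 and 5.11 CPM in lin-61 and 8.52, 7.85 and 9.41 CPM in N2.

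In nrde-3, 104 windows of the arm were higher than in N2 (3.32%, against 3.94% of all tested windows) and 291 were lower (9.28%, against 8.25% of all). Median levels were 1.16 CPM in nrde-3 against 0.308 CPM in N2 for the higher windows, and 3.67 CPM in nrde-3 against 8.99 CPM in N2 for the lower ones. Libraries did not overlap in 99 of the higher and 289 of the lower windows, against 3.76% and 8.15% of all tested windows. Lower windows were spread over the arm, at 7.41 to 12.7% of the windows tested in each 500 kb part, and 128 of their 194 regions were single windows. The prefixes differ here, and no fit of these genotypes separates them from the mutation. Without N2 library a, b or c, 51, 55 and 33 windows were higher, and without nrde-3 library a, b or c, 63, 51 and 64 were. Without nrde-3 library b, 185 were lower, and with no filter on low counts 62 were higher.

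In the longest region higher in nrde-3 than in N2, libraries with and without the nrde-3 mutation did not overlap. The region was chosen by its calls between nrde-3 and N2, and the arm was not searched for other such stretches. II 13469001 to 13479500, 10.5 kb with 19 of 21 windows higher in nrde-3 than in N2, held 18.8, 11.8 and 11.9 CPM per window in nrde-3 and 2.9, 3.29 and 3.27 CPM in N2. It held 11.9, 17.5 and 13.6 CPM in nrde-3 met-2 and 14.7, 15.6 and 17.6 CPM in nrde-3 set-25. In the genotypes without the nrde-3 mutation it held 6.97, 7.94 and 4.82 CPM in lin-61 set-25 and 4.32, 4.28 and 4.31 CPM in lin-61. Every library with the mutation was above every library without it, lin-61 set-25 of the same prefix included. At II 13474001, inside it, nrde-3 held 4.91, 5 and 3.51 CPM and N2 0.961, 0.503 and 0.676 CPM, a log2 fold change of 2.63 ± 0.28 (SE, edgeR adjusted p = 1.27e-06) that held without any 1 library.

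The other named windows that rose in nrde-3 lay in 2 places. II 14008001 held 0.689, 1.03 and 0.869 CPM in nrde-3 and 0.151, 0.16 and 0 CPM in N2, with a log2 fold change of 2.97 ± 0.69 (SE, edgeR adjusted p = 0.00518) that held without any 1 library. II 13824001, II 13828001 and II 13822501, less abundant windows of the stretch of 11.5 kb, had log2 fold changes of 3.83, 2.78 and 2.35. II 13824001 held 73.8, 25.4 and 12.4 CPM in nrde-3 and 1.89, 3.25 and 2.71 CPM in N2. It also held 31.7, 54.4 and 31.8 CPM in lin-61 set-25 and 0.744, 1.25 and 2.81 CPM in lin-61, and among the prefix 1121 libraries of the genotypes compared, nrde-3 met-2 library a alone was low (0.494 CPM). Of the other long regions, II 14329001 to 14331500 (4 of 5 windows called) held 0.379, 0.362 and 0.584 CPM per window in nrde-3 and 0.158, 0.192 and 0.217 CPM in N2, and II 14006501 to 14008500 (4 of 4) held 1.02, 1.29 and 0.839 CPM in nrde-3 and 0.198, 0.223 and 0.0543 CPM in N2. The call at II 13822501 was lost without N2 library a or c or nrde-3 library a, at 1.82 to 2.33.

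The named windows that fell in nrde-3 were low in all compared genotypes of prefix 1121. II 12992501 held 2.24, 5.04 and 3.08 CPM in nrde-3 and 27, 18.3 and 26.3 CPM in N2, with a log2 fold change of -2.78 ± 0.32 (SE, edgeR adjusted p = 3.95e-06). It held 1.2, 1.16 and 0.494 CPM in lin-61 set-25 and 16.7, 23 and 17.5 CPM in lin-61. II 12194501, II 13199001, II 13280001 and II 13322001 had log2 fold changes of -2.76, -2.68, -2.64 and -2.64, and in each of them the prefix 1121 libraries lay below all lin-61 and N2 libraries. Among the regions, II 13014001 to 13016500 held 1.38, 2.77 and 2.31 CPM per window in nrde-3 and 9.85, 7.55 and 10.1 CPM in N2, with 1.34 to 2.85 CPM in the double mutants and 9.31, 12.5 and 10.5 CPM in lin-61. II 13324501 to 13327000 was divided by prefix in the same way.

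The longest region lower in nrde-3 than in N2 was not divided by prefix. II 13245501 to 13249500, with 7 of 8 windows called, held 0.5, 0.55 and 0.553 CPM per window in nrde-3 and 1.49, 1.42 and 1.73 CPM in N2, and every double mutant library was above every nrde-3 library. With the window before it, this stretch (II 13245001 to 13249500, 4.5 kb) was also the longest region higher in nrde-3 set-25 than in nrde-3, with 7 of 9 windows called, and 8 of 9 were higher in nrde-3 met-2 than in nrde-3. It held 2.26, 2.02 and 1.67 CPM in nrde-3 met-2 and 1.35, 2.54 and 2.09 CPM in nrde-3 set-25, against 0.516, 0.532 and 0.5 CPM in nrde-3. In lin-61, 8 of 9 windows were higher than in N2, at 5.77, 8.04 and 6.22 CPM in lin-61 and 1.43, 1.36 and 1.69 CPM in N2. In lin-61 set-25, at 2.84, 2.76 and 2.21 CPM, 7 of 9 were lower than in lin-61. The level was thus lowest in nrde-3 and highest in lin-61, and the libraries of N2 and nrde-3 set-25 overlapped.

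At II 13247001, in that stretch, nrde-3 met-2 held 3.83, 5.44 and 2.67 CPM, nrde-3 set-25 3.2, 5.42 and 5.01 CPM, and nrde-3 0.99, 0.922 and 0.711 CPM. Against nrde-3, the log2 fold change was 2.18 ± 0.28 in nrde-3 met-2 (SE, edgeR adjusted p = 3.8e-05) and 2.37 ± 0.28 in nrde-3 set-25 (edgeR adjusted p = 8.49e-05). It was 2 ± 0.25 in lin-61 against N2 (edgeR adjusted p = 1.56e-05) and -1.33 ± 0.24 in lin-61 set-25 against lin-61 (edgeR adjusted p = 0.000247). Between nrde-3 set-25 and lin-61 set-25 it was -0.38 ± 0.25 (edgeR adjusted p = 0.453).

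**Figure D4:**
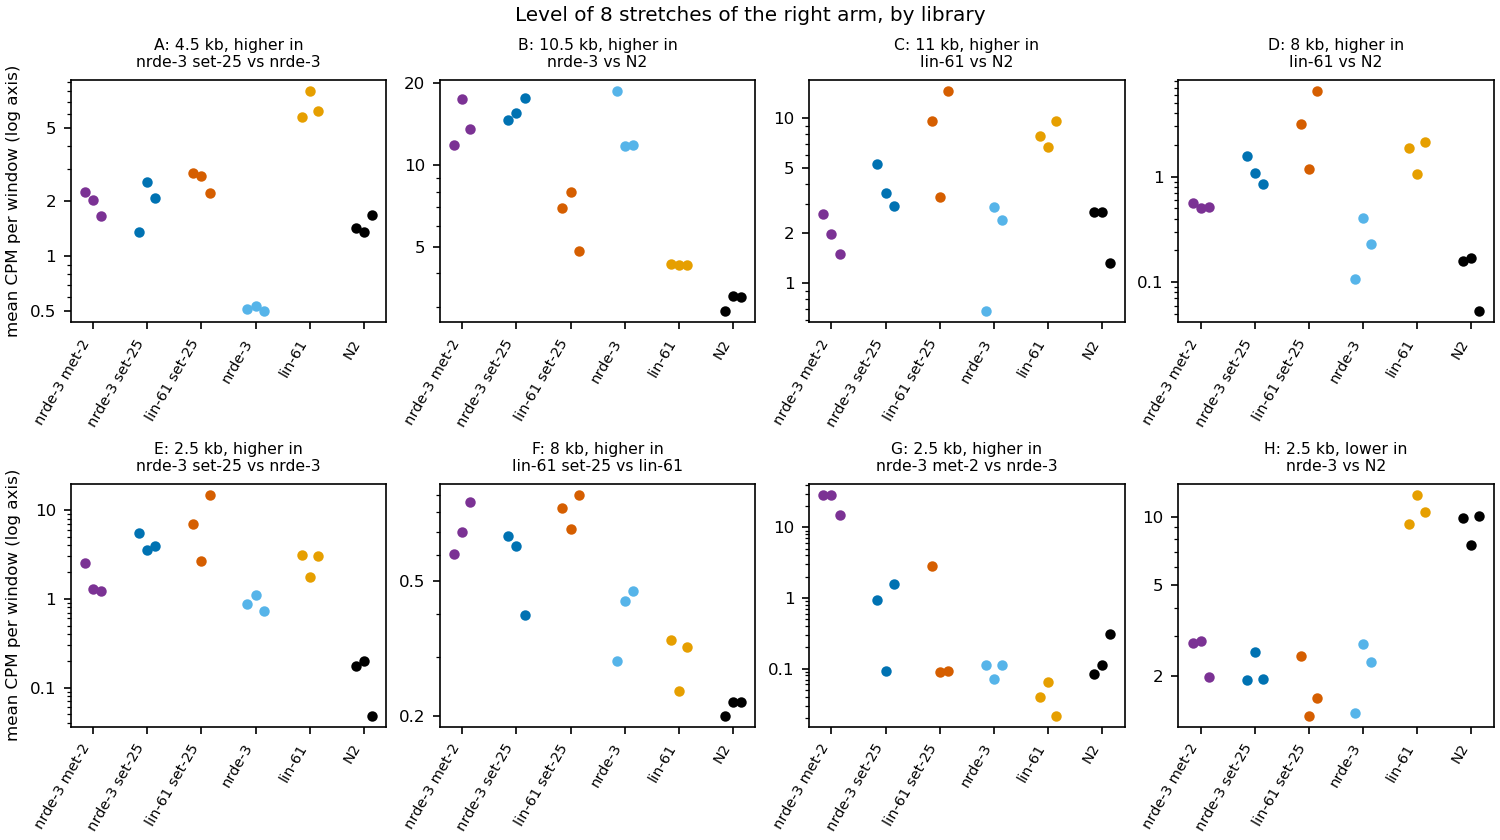
Mean level per window (CPM, log axis) of 8 stretches of the arm in each library, 3 points per genotype. A is II 13245001 to 13249500, B is II 13469001 to 13479500, C is II 14656001 to 14667000, D is II 13508501 to 13516500, E is II 14006001 to 14008500, F is II 14324001 to 14332000, G is II 12843501 to 12846000 and H is II 13014001 to 13016500; B separates libraries with and without the nrde-3 mutation, G is highest in nrde-3 met-2 (15 to 28.7 CPM) and H is highest in lin-61 and N2 (7.55 to 12.5 CPM).

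In nrde-3 set-25, 79 windows of the arm were higher than in nrde-3 (2.52%, against 2.46% of all tested windows) and 6 were lower (0.191%, against 0.232% of all). Median levels of the higher windows were 2.36 CPM in nrde-3 set-25, against 0.589 CPM in nrde-3, with a median log2 fold change of 2.18, and 0 of them lay in the first 500 kb of the arm. Libraries did not overlap in 78 of the higher and 5 of the lower windows, against 2.45% and 0.231% of all tested windows. Of the 79, 57 (72.2%) were among the 250 windows higher in lin-61 than in N2 (22.8% of those), and over the whole genome these shares were 74.0% and 17.4%. These comparisons share no library, but both were called in the same fit, with a shared filter, TMM scaling and estimate of the spread. With 1 nrde-3 library left out, higher and lower calls came to 32 and 11 (library a), 53 and 2 (library b) or 22 and 0 (library c). With 1 nrde-3 set-25 library left out, they came to 25 and 0 (library a), 56 and 1 (library b) or 52 and 0 (library c). DESeq2 called 22 lower windows, and in the fit to all libraries 206 had a log2 fold change below 0 at an unadjusted edgeR p below 0.05.

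II 14006001 to 14008500, with all 5 windows higher in nrde-3 set-25 than in nrde-3, held 5.53, 3.51 and 3.92 CPM per window in nrde-3 set-25, against 0.869, 1.11 and 0.734 CPM in nrde-3. All 5 were also higher in lin-61 (3.08, 1.75 and 3.02 CPM) than in N2 (0.177, 0.201 and 0.0483 CPM), and in lin-61 set-25 (7.01, 2.66 and 14.8 CPM) than in lin-61. The stretch was lowest in N2 and most variable in lin-61 set-25. In II 13513001 to 13515500, inside the second longest region higher in lin-61, 4 of 5 windows were called, at 2.38, 1.7 and 1.13 CPM in nrde-3 set-25, against 0.146, 0.589 and 0.253 CPM in nrde-3.

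Of the named windows, II 12973501 held 6.19, 3.81 and 3.82 CPM in nrde-3 set-25, against 0.646, 0.781 and 0.908 CPM in nrde-3, with a log2 fold change of 2.56 ± 0.46 (SE, edgeR adjusted p = 0.00386) that held under every setting tried. II 14684001 rose by 3.02 ± 0.63, II 13245001 by 2.69 ± 0.52, II 14006501 by 2.65 ± 0.53 and II 13513501 by 2.48 ± 0.68 on the log2 scale (edgeR adjusted p of 0.0109, 0.00585, 0.00833 and 0.0488). None of these 4 calls held without nrde-3 library c, and the call at II 14684001 was also lost without nrde-3 set-25 library a. That at II 13513501 was lost without nrde-3 library a or any 1 nrde-3 set-25 library, with RLE scaling, without the lin-61 met-2 libraries and with the quiet level subtracted. In the fits without 1 library that lost these calls, the log2 fold changes were 2.05 to 2.94. The named windows that fell, II 14278001, II 14533501, II 12873501 and II 13396001, had log2 fold changes of -1.1, -1.05, -0.98 and -0.82 (edgeR adjusted p of 0.0483, 0.0494, 0.034 and 0.0452). Each was lost without any 1 of at least 5 of the 6 libraries, at -1.25 to -0.64.

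In nrde-3 met-2, 196 windows of the arm were higher than in nrde-3 (6.25%, against 6.67% of all tested windows) and 10 were lower (0.319%, against 0.833% of all). Median levels of the higher windows were 0.632 CPM in nrde-3 met-2, against 0.0918 CPM in nrde-3, with a median log2 fold change of 2.87, and 112 of their 140 regions were single windows. The quiet windows of the arm stood at 0.0733 to 0.217 CPM in nrde-3 met-2, against 0.00583 to 0.0077 CPM in nrde-3. Libraries did not overlap in 188 of the higher and in all 10 lower windows, against 6.43% and 0.782% of all tested windows. With the level of the quiet windows subtracted, 64 windows were higher and 27 lower. With only the 6 libraries fitted, 86 were higher and 0 lower, and without nrde-3 met-2 library b 389 were higher and 147 lower. Lower windows numbered 68, 45 and 27 without nrde-3 library a, b or c and 42 without nrde-3 met-2 library c. With no filter on low counts 985 were higher and 440 lower, and DESeq2 called 31 lower windows. Of the 196, 35 (17.9%) were among the 250 higher in lin-61 than in N2 (14% of those), against 16.6% and 10.6% over the whole genome.

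A few stretches were high in nrde-3 met-2. II 12843501 to 12846000, with all 5 windows called, held 28.2, 28.7 and 15 CPM per window in nrde-3 met-2 and 0.112, 0.071 and 0.111 CPM in nrde-3. It held 0.949, 0.0927 and 1.6 CPM in nrde-3 set-25. Levels were 2.81, 0.0897 and 0.0922 CPM in lin-61 set-25, and 0.0216 to 0.304 CPM in lin-61 and N2. At II 12844001, inside it, nrde-3 met-2 held 23.2, 11.3 and 14.5 CPM and nrde-3 0.043, 0 and 0.0395 CPM. The reads were 1357 in nrde-3 met-2 and 2 in nrde-3, a ratio of 621 after scaling (exact binomial 95% interval 172 to 5130, counting error only), with an edgeR adjusted p of 0.000105.

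II 14338501 held 24, 8.01 and 17.9 CPM in nrde-3 met-2 and 0.129, 0 and 0.237 CPM in nrde-3, with a log2 fold change of 7.09 ± 0.9 (SE, edgeR adjusted p = 3.25e-05). II 13985001 was highest in library b, with 18.4, 280 and 19.1 CPM in nrde-3 met-2 and 1.08, 0.816 and 1.03 CPM in nrde-3, with a log2 fold change of 6.76 ± 1.41 (edgeR adjusted p = 0.00383). II 14504501 held 6.26, 8.62 and 4.53 CPM in nrde-3 met-2 and 2.28, 1.81 and 1.62 CPM in nrde-3, with a log2 fold change of 1.77 ± 0.3 (edgeR adjusted p = 0.000659). The calls at these 3 windows, at II 12844001 and at II 13247001 held under every setting tried. The longest region, II 14688001 to 14692500, had all 9 windows called, at 0.742, 0.735 and 0.989 CPM in nrde-3 met-2 and 0.239, 0.244 and 0.211 CPM in nrde-3. All 9 were also higher in lin-61 (0.888, 0.914 and 0.822 CPM) than in N2 (0.124, 0.135 and 0.137 CPM).

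The 10 lower windows were single windows. II 14070001 held 3.08, 3.25 and 3.48 CPM in nrde-3 met-2 and 5.98, 6.14 and 8.13 CPM in nrde-3, with a log2 fold change of -1.04 ± 0.2 (SE, edgeR adjusted p = 0.00162) that was no longer called when only the 6 libraries were fitted. II 14340501, II 14238501, II 12164501 and II 14080001 had log2 fold changes of -0.96, -0.93, -0.87 and -0.83 (edgeR adjusted p of 0.0372, 0.0337, 0.0347 and 0.0458). All 4 calls were lost without nrde-3 met-2 library a, with only the 6 libraries fitted and with background subtracted, at -0.9 to -0.72. The call at II 14340501 was also lost without nrde-3 library a, that at II 14238501 without nrde-3 library b, and those at II 12164501 and II 14080001 without the lin-61 met-2 libraries (edgeR adjusted p of 0.0521 and 0.065). The call at II 14080001 was further lost without nrde-3 library b or c or nrde-3 met-2 library c.

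In lin-61 set-25, 340 windows of the arm were higher than in lin-61 (10.8%, against 13.4% of all tested windows) and 463 were lower (14.8%, against 13.3% of all), across the prefixes. Median levels were 1.43 CPM in lin-61 set-25 against 0.432 CPM in lin-61 for the higher windows, and 2.67 CPM in lin-61 set-25 against 7.06 CPM in lin-61 for the lower ones. Libraries did not overlap in 291 of the higher and 460 of the lower windows, against 11.3% and 13.2% of all tested windows. Without lin-61 library b, lin-61 library c or lin-61 set-25 library c, 195, 211 and 211 were higher.

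The longest higher region, II 14324001 to 14332000, had all 16 windows called, at 0.82, 0.712 and 0.899 CPM per window in lin-61 set-25 and 0.335, 0.237 and 0.32 CPM in lin-61. II 14680001 to 14685500, with 9 of 11 windows called, held 3.91, 1.91 and 8.1 CPM in lin-61 set-25 and 1.65, 1.05 and 1.76 CPM in lin-61. II 15158501 to 15163500, with 9 of 10 windows called, held 0.764, 0.284 and 1.94 CPM in lin-61 set-25 and 0.163, 0.0779 and 0.139 CPM in lin-61. In all 3 regions lin-61 set-25 library c was the highest and library b the lowest. The same held in the regions higher in lin-61 than in N2, with 9.58, 3.31 and 14.7 CPM at II 14656001 to 14667000 and 3.18, 1.18 and 6.54 CPM at II 13508501 to 13516500 in the lin-61 set-25 libraries.

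The largest named rise in lin-61 set-25, at II 13985001, rested on library a, with 28.3, 0.299 and 1.84 CPM in lin-61 set-25 and 0, 0.041 and 0.036 CPM in lin-61. Its call was lost without that library (log2 fold change 5.19, edgeR adjusted p = 0.0546). II 12845501 held 2.71, 0.149 and 0.132 CPM in lin-61 set-25 and 0.0588, 0.0205 and 0 CPM in lin-61, and its call was lost without lin-61 set-25 library a (log2 fold change 2.26). II 12974001 held 13.5, 6.46 and 35.5 CPM in lin-61 set-25 and 1.96, 1.23 and 2.09 CPM in lin-61, a log2 fold change of 3.39 ± 0.42 (SE, edgeR adjusted p = 2.06e-06) that held without any 1 library. The same window held 8.76, 5.49 and 4.51 CPM in nrde-3 set-25, against 1.29, 1.45 and 1.03 CPM in nrde-3 (edgeR adjusted p = 0.00508), so it was higher in both set-25 double mutants than in the matching single mutants. II 13824001 and II 13828001 had log2 fold changes of 4.61 and 3.73, and in nrde-3 set-25 against nrde-3 their values were 0.61 and 0.5, not called.

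The named windows that fell in lin-61 set-25 were again low in all compared genotypes of prefix 1121. II 12194501 held 0.535, 0.523 and 0.165 CPM in lin-61 set-25 and 7.29, 9.74 and 8.46 CPM in lin-61, a log2 fold change of -4.37 ± 0.45 (SE, edgeR adjusted p = 1.85e-07). II 12992501, II 13322001, II 13280001 and II 12249001 had log2 fold changes of -4.32, -3.31, -3.12 and -3.12. The longest lower region, II 12218501 to 12225000, had 7 of 13 windows called, at 13.1, 11.2 and 8.47 CPM per window in lin-61 set-25 and 17, 18 and 17 CPM in lin-61. II 13039501 to 13043500 (5 of 8) held 2.93, 2.9 and 1.7 CPM in lin-61 set-25 and 6.1, 7.54 and 6.03 CPM in lin-61, and II 14709501 to 14713000 (6 of 7) held 34.4, 20.2 and 28.4 CPM in lin-61 set-25 and 48.5, 56 and 57.2 CPM in lin-61. The abundant window II 14251001 held 621, 496 and 344 CPM in lin-61 set-25 and 1680, 3380 and 2740 CPM in lin-61, and 999, 569 and 470 CPM in nrde-3 and 2830, 2600 and 3170 CPM in N2. Its log2 fold changes were -2.42 ± 0.34 in lin-61 set-25 against lin-61 and -2.08 ± 0.34 in nrde-3 against N2 (edgeR adjusted p of 1.45e-05 and 0.000188), and it too was divided by prefix.

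Within prefix 1121, 32 windows of the arm were higher in nrde-3 set-25 than in lin-61 set-25 (1.02%, against 0.612% of all tested windows) and 34 were lower (1.08%, against 1.67% of all). Libraries did not overlap in all 32 higher and in 23 of the lower windows, against 0.608% and 1.4% of all tested windows. Of the 32, 11 lay in II 13472001 to 13478500, within the stretch that separates libraries with and without the nrde-3 mutation. It held 23.5, 24.9 and 28.2 CPM per window in nrde-3 set-25, against 11.1, 12.7 and 7.66 CPM in lin-61 set-25. At II 13472001 nrde-3 set-25 held 23.9, 32.3 and 37.3 CPM and lin-61 set-25 12.1, 10.7 and 6.29 CPM, a log2 fold change of 1.68 ± 0.29 (SE, edgeR adjusted p = 0.00222) that held under every setting tried.

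The next regions held 2 windows each. II 12992001 to 12993000 held 3.89, 5.33 and 4.44 CPM in nrde-3 set-25, against 2.5, 2.43 and 1.63 CPM in lin-61 set-25. II 13819501 to 13820500 held 600, 661 and 863 CPM in nrde-3 set-25, against 351, 370 and 259 CPM in lin-61 set-25. It lies in the stretch of 11.5 kb, and its windows had almost the same level as II 13823001 and II 13823501. Calls at these windows may thus not be separate results, which was not tested.

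The other calls between the set-25 double mutants were less stable. With only the 6 libraries fitted, 3 windows were higher and 2 lower. Leaving out nrde-3 set-25 library b gave 11 higher and 6 lower, leaving out its library c gave 9 and 5, and leaving out lin-61 set-25 library c gave 10 and 4. Without nrde-3 set-25 library a 22 were lower, without lin-61 set-25 library a 17 were higher, and without lin-61 set-25 library b 133 were lower. With no filter on low counts 64 were lower, and DESeq2 called 67 lower. II 12992501, II 13825001, II 12190501 and II 13823001 were higher in nrde-3 set-25 by 1.49, 1.39, 1.35 and 1.27 on the log2 scale (edgeR adjusted p of 0.0274, 0.0464, 0.0323 and 0.0377). II 13825001, in the stretch of 11.5 kb, held 2170, 3140 and 4270 CPM in nrde-3 set-25, against 1380, 1450 and 829 CPM in lin-61 set-25. These 4 calls were lost with only the 6 libraries fitted and without nrde-3 set-25 library b or c or lin-61 set-25 library c, at 1 to 1.59, and those at II 13825001 and II 13823001 also without lin-61 set-25 library a. The call at II 13825001 was further lost with RLE scaling, without the lin-61 met-2 libraries and with the quiet level subtracted.

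Of the windows lower in nrde-3 set-25, II 14684001 held 2.67, 1.89 and 0.82 CPM in nrde-3 set-25, against 5.91, 2.76 and 16.2 CPM in lin-61 set-25, a log2 fold change of -2.19 ± 0.47 (SE, edgeR adjusted p = 0.0135). II 14676501 held 5.73, 3.81 and 2.37 CPM in nrde-3 set-25, against 13, 5.79 and 23.6 CPM in lin-61 set-25, a log2 fold change of -1.82 ± 0.39 (edgeR adjusted p = 0.013). Both calls were lost with only the 6 libraries fitted and without nrde-3 set-25 library b or c or lin-61 set-25 library c, at -2.21 to -1.23. II 15071001 and II 13018501 had log2 fold changes of -0.8 and -0.72 (edgeR adjusted p of 0.0489 and 0.0367), calls that were lost without any 1 of at least 5 of the 6 libraries. II 14675501 to 14677000, around II 14676501, had all 3 windows called, at 4.27, 2.57 and 2.44 CPM per window in nrde-3 set-25, against 10.9, 3.72 and 16.6 CPM in lin-61 set-25. II 12895501 to 12897000 (2 of 3) held 0.504, 0.641 and 0.41 CPM in nrde-3 set-25, against 1.65, 1.33 and 4.67 CPM in lin-61 set-25. II 14169001 to 14170500, with all 3 windows called, held 0.328, 0.273 and 0.167 CPM per window in nrde-3 set-25, against 0.933, 1.17 and 1.15 CPM in lin-61 set-25. All 3 were also higher in nrde-3 met-2 (0.936, 0.775 and 1.03 CPM) than in nrde-3 (0.23, 0.213 and 0.263 CPM).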

How the data were processed

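RNA of whole early embryos was measured as reads per window of 500 bp. The authors deposited a table of whole-number counts with no normalization, on build ce10 per the submitters' processing notes; the aligner and the counter are not given in the sources used here. The table holds 6 further columns of values that match no sample and were not used. Counts were tested with edgeR 4.0.16 in R 4.3.3 (TMM scaling, filterByExpr with a minimum count of 10, quasi-likelihood test, 1 coefficient per genotype, 21 libraries, 14 residual degrees of freedom). p-values were adjusted by Benjamini-Hochberg over 97353 windows and called below 0.05. The arm was set against the rest of the genome with limma 3.58.1 over 18 domains, on log2(CPM + 1) and on the share of windows with at least 5 reads. DESeq2 1.42.0 was an alternative. Sums were compared by exact permutation over libraries in Python 3.11.15 (scipy 1.17.1). The edgeR and limma steps were tested on simulated data.

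A region joins neighbouring calls of the same direction, allowing 1 window between them. By rule, for each comparison and direction, up to 5 windows with the largest log2 fold change are named, 1 per region, if called, at a mean log2 CPM of 1 or more and without overlap between the groups. The rule also covers the 3 longest regions and the 5 windows most abundant in N2, regions of a single window aside. The arm, the comparisons and the rules were chosen with earlier results of these data known. Regions were chosen by their calls, so their levels per library are a description. The stretch of 11.5 kb joins windows abundant in N2 around the most abundant one, so its levels are a description too. The letters a, b and c are those of the table's columns.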

Additional observations from a re-analysis of the deposited data

Results flagged for a closer look

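At 2 of the 51 named windows, loss of set-25 went opposite ways in the nrde-3 and the lin-61 mutants, with groups that did not overlap in either. At II 13245001 the log2 fold change was 2.69 in nrde-3 set-25 against nrde-3 and -1.09 in lin-61 set-25 against lin-61, a difference of 3.78. At II 13247001 these values were 2.37 and -1.33, a difference of 3.7. Both windows lie in II 13245001 to 13249500. The difference itself was not tested, and lin-61 set-25 and lin-61 differ in prefix.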

How the results depend on the processing

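Counts of higher or lower arm windows moved beyond 1.5 times as follows. With only the 6 libraries fitted, lin-61 against N2 had 399 higher and 169 lower, nrde-3 met-2 against nrde-3 86 and 0, and nrde-3 set-25 against lin-61 set-25 3 and 2. With no filter on low counts, nrde-3 against N2 had 62 higher, nrde-3 met-2 against nrde-3 had 985 and 440, and nrde-3 set-25 against lin-61 set-25 64 lower. Without the lin-61 met-2 libraries, nrde-3 set-25 against nrde-3 had 3 lower. A model with additive mutation and prefix terms, also without those libraries, has as many coefficients as genotypes, so it is no test of the prefix: its nrde-3 value is nrde-3 set-25 against lin-61 set-25 plus lin-61 against N2, and its lin-61 set-25 value is nrde-3 set-25 against nrde-3. It gave 32 higher and 1 lower for the first and 60 and 3 for the second. With background subtracted, nrde-3 met-2 had 64 and 27 against nrde-3, and 2 lower in nrde-3 set-25 against nrde-3. DESeq2 called 103 lower in lin-61 against N2, 31 in nrde-3 met-2 and 22 in nrde-3 set-25 against nrde-3, and 67 in nrde-3 set-25 against lin-61 set-25. Leaving out each library in turn gave 117 to 219 higher and 7 to 49 lower (lin-61, N2), 33 to 64 and 185 to 260 (nrde-3, N2), 137 to 389 and 9 to 147 (nrde-3 met-2, nrde-3), 22 to 56 and 0 to 11 (nrde-3 set-25, nrde-3), 195 to 349 and 326 to 445 (lin-61 set-25, lin-61), and 9 to 43 and 4 to 133 (nrde-3 set-25, lin-61 set-25). The share of windows with reads, arm minus rest, was -1.31 points at a minimum of 20 reads (nrde-3 met-2, nrde-3), -0.34 at 2 reads and -0.772 at 20 (lin-61 set-25, lin-61), and 0.191 at 20 (nrde-3 set-25, lin-61 set-25), and without each library -7.87 to -4.01 (nrde-3 met-2, nrde-3) and -0.608 to 0.0154 (nrde-3, N2). The mean level, arm minus rest, was then -0.0389 to 0.0217 (nrde-3 met-2, nrde-3) and -0.0335 to 0.0131 (nrde-3 set-25, lin-61 set-25). Of 58 named results, 31 held without any 1 library, and 16 held in every other setting as well, the additive model included. The values that differ in sign in the additive model, by that construction, are in nrde-3 against N2, II 13824001 -0.17, II 13828001 -0.46, II 13822501 -0.55, II 12992501 1.16, II 12194501 1.47, II 13199001 0.06, II 13280001 0.62 and II 13322001 0.53, and in lin-61 set-25 against lin-61, II 13280001 0.14 and II 12249001 0.7. Except where a setting uses fewer samples or windows, the cause was not tested. No paired analysis was possible because nothing links the column letters a, b and c to the numbers in the titles. Totals were 22275571 to 28834312 reads in prefix 1121 and 54839178 to 67553226 in prefix 875.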
